A study of Mus musculus with 12 samples.

Results

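Sdk1, Sdk2, Igsf21, Shank1, Shank2 and Shank3 are genes of synaptic adhesion and of the scaffold beneath the synapse, and their DNA methylation was read in blood progenitors of the bone marrow. The regions described were those that the authors' list of hypomethylated regions placed within 5 kb of any of these 6 genes, plus every candidate region lying between the first and the last of them in each gene. They came to 263 of 107115 candidate regions, of which 196 were on the authors' list of 35439 regions and 67 lay between listed ones. The 196 were thus chosen by the authors' call on these same levels, a mutant mean at least 20 points below that of the wild type, so their levels are a description, and calls on them support nothing. Candidate regions too were chosen for a difference, so counts of calls on them are also only a description. The 6 symbols are synaptic genes by their known products, but no expression was measured here, so neither that label nor the labelled cell type could be checked against RNA.

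The study compared Dnmt1 mutant with wild-type mice, both of the BALB/c strain, in lineage-negative (lin-) cells, which are bone marrow cells depleted of those with markers of mature blood lineages. The labels write the mutant genotype as dnmt1-/-, whereas the series describes a specific mutation made in mice after missense alleles of fish. No treatment, age or sex is given, and the labels name no promoter or Cre line that would limit the mutation to some cells. Of 12 samples, 6 were mutant and 6 wild type: each of 3 replicate numbers per genotype had a bisulfite library and an enzymatic conversion library, and the values come as 3 columns per genotype. Nothing says whether replicates came from separate animals, so SDs measure the spread between columns, which may be technical. A column's level in a region is the methylated share that the authors tabulated for it, given here in percent. In bulk DNA a change in the mix of cell types and a change of methylation within cells cannot be told apart.

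DNMT1 copies methylation onto the new DNA strand after replication, mostly at CpG, a cytosine followed by guanine. In most mammalian cells the CpGs inside gene bodies are methylated, while CpG-rich stretches at gene starts, called CpG islands, usually are not. The Sidekick proteins SDK1 and SDK2 are large immunoglobulin-superfamily adhesion molecules that bind their own kind across the synapse and help match partner neurons in the retina. IGSF21 is a membrane protein of the same superfamily that binds a neurexin and promotes inhibitory presynaptic differentiation. SHANK1, SHANK2 and SHANK3 are multidomain scaffold proteins of the postsynaptic density at excitatory synapses. The genes are known for their roles in neurons, and a role in lineage-negative progenitors is not assumed here.

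The sequences at the starts of Sdk2, Igsf21 and Shank3 are shown because the candidate regions nearest to them were low in methylation in both genotypes. Windows from 250 bases before to 50 bases after the start were held for 4 of the 6 genes in the RefSeq table of GRCm38.p6. The Igsf21 window (chr4:140246762-140247061, minus strand) is shown because a candidate region overlaps it. The windows of Sdk2 (chr11:114066980-114067279, minus strand) and Shank3 (chr15:89499358-89499657, plus strand) are shown because candidate regions begin 274 and 353 bp after these starts. Capitals mark each CpG, written 5' to 3' on the gene's strand.
Igsf21: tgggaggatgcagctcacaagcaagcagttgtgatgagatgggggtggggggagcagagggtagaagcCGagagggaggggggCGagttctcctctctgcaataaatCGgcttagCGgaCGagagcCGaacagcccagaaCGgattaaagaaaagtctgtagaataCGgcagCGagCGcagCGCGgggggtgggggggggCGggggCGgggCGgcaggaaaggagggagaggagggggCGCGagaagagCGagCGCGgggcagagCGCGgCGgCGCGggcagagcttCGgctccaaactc
Sdk2: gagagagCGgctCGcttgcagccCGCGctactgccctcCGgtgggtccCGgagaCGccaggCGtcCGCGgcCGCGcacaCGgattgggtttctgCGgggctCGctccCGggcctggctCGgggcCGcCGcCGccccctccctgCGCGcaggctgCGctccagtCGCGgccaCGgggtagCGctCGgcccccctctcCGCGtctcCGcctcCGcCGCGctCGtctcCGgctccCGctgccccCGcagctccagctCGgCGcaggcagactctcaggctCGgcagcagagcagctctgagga
Shank3: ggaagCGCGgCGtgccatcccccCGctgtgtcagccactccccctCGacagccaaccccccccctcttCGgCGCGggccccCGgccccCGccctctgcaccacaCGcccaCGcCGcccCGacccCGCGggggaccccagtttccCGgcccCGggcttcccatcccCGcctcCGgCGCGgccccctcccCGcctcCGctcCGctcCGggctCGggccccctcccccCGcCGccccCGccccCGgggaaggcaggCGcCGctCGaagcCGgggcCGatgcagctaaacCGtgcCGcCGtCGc
Igsf21 had 26 CpGs in 300 bases, Sdk2 had 41 and Shank3 had 40, while the Sdk1 window had 54. The letters CG, which read the same on both strands, were in 94.6% of 32851 such windows, with a median of 7 per window. At least as many as in Igsf21 stood in 16.9% of windows, as in Sdk2 in 3.46%, as in Shank3 in 3.91% and as in Sdk1 in 0.347%.

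Over the 196 listed regions the mean level was 44.5%, 46.6% and 47.0% in the mutant columns, against 76.3%, 75.9% and 76.8% in the wild-type columns. The means were 46.0% ± 1.34 in mutant cells and 76.4% ± 0.46 in wild-type cells (SD, n = 3 each), a difference of -30.3 points, so that the mutant retained 60.3% of the wild-type level. All listed regions of the series averaged 48.4% ± 2.31 in mutant cells and 76.8% ± 0.33 in wild-type cells, a difference of -28.4 points. In every one of the 196 regions each mutant column was below each wild-type column, and limma called all 196 lower in the mutant (Benjamini-Hochberg adjusted p under 0.05). These counts restate the choice of the regions, and over all candidate regions limma called 93.5% lower and 94.3% had no overlap between genotypes. The authors' caller gave a q under 0.05 to 55 of the 196 (28.1%), against 23.3% of all listed regions. By gene these were 4 of 22 in Sdk1, 15 of 58 in Sdk2, 15 of 52 in Igsf21, 7 of 13 in Shank1, 14 of 50 in Shank2 and 0 of 1 in Shank3. A difference of 40 points or more was seen in 28 of the 196 (14.3%), against 8.55% of all listed regions, and these 28 were spread unevenly over the genes: 10 in Shank2, 7 in Igsf21, 6 in Shank1, 5 in Sdk2 and 0 in Sdk1 and Shank3.

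**Figure D1:**
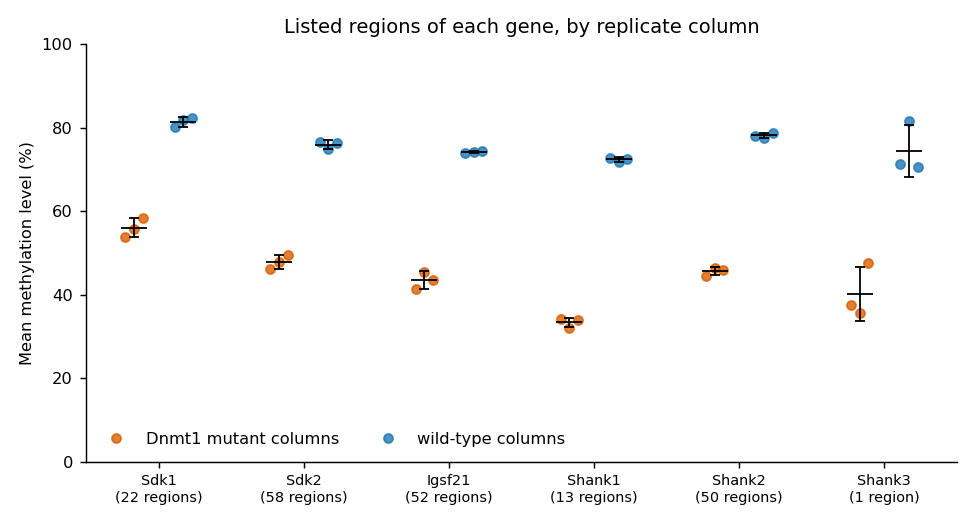
Mean methylation level in percent (vertical axis) over the listed regions of each gene, with each mutant column plotted left of each wild-type column and bars for the mean and SD over 3 columns. Mutant means run from 33.3% in Shank1 to 56.0% in Sdk1, whereas wild-type means lie between 72.4% and 81.4%.

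The genes thus differed more in the mutant than in the wild type. Ordered by the mutant mean, Shank1 was lowest (33.3% ± 1.17), followed by Shank3 (40.2% ± 6.51), Igsf21 (43.5% ± 2.06), Shank2 (45.6% ± 0.93), Sdk2 (47.8% ± 1.64) and Sdk1 (56.0% ± 2.29; SD, n = 3 each). The columns of Igsf21 and Shank2 overlapped, as did those of Shank2 and Sdk2, and Shank3, with 1 listed region, overlapped Igsf21, Shank2 and Sdk2. Shank1 lay below Igsf21, Shank2, Sdk2 and Sdk1 in every mutant column, and Sdk1 lay above the 5 others in every one. In the wild type the order was Shank1 (72.4% ± 0.52), Igsf21 (74.1% ± 0.27), Shank3 (74.5% ± 6.24), Sdk2 (75.9% ± 1.0), Shank2 (78.1% ± 0.65) and Sdk1 (81.4% ± 1.2). There Shank3 overlapped every other gene, while the columns of the 5 others did not overlap between neighbours in this order.

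Among the adhesion genes, Sdk1 had the smallest differences. Its 22 listed regions averaged 53.8%, 55.8% and 58.4% in mutant cells and 80.1%, 81.7% and 82.4% in wild-type cells. The mean difference was -25.4 points, and single regions ranged from -33.6 to -20.7 points. Sdk1 is the longest of the 6 genes (chr5:141241497-142215586, plus strand, 974.1 kb), and its listed regions were few for that length, 2.26 per 100 kb. The gene held only 46 candidate regions, and the 22 listed made 47.8% of them, against 33.1% over all candidate regions. The nearest of the 22 began 315493 bp after its start, and 20 of 22 were nearer the gene's end than its start. So were 20 of the 23 candidate regions between them. Beyond the limit of 5 kb, the list assigned 5 further regions to Sdk1 from 19909 to 44413 bp before the gene. The region of the 22 nearest the start, chr5:141557027-141557617 with 12 CpGs, had 52.8%, 61.5% and 57.6% in the mutant, against 76.5%, 81.4% and 85.0% in the wild type. The largest difference in Sdk1, -33.6 points, was at chr5:142188797-142189332 with 10 CpGs, at 40.8%, 48.0% and 49.3% in mutant cells and 78.8%, 75.3% and 84.7% in wild-type cells. Its listed region with the most CpGs, 23 at chr5:142179206-142180179, had 51.1%, 59.8% and 55.5% in mutant cells and 86.0%, 88.1% and 86.5% in wild-type cells. Mutant columns stood apart from wild-type columns in all these regions, by more than the spread within a genotype. Of these named regions, the authors' caller gave a q under 0.05 only to the one with 23 CpGs.

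Sdk2, the other Sidekick, carried listed regions along its whole length. There were 58, the seventh most of 10681 genes with a listed region within 5 kb, where the median gene had 1. The gene (chr11:113776374-114067029, minus strand) spans 290.7 kb, and listed regions covered 16.6% of it, against 1.73% of the Sdk1 span. The 58 regions averaged 46.1%, 47.9% and 49.4% in the mutant, against 76.6%, 74.8% and 76.3% in the wild type, a difference of -28.1 points. Levels in both genotypes were lowest in the part nearest the start and highest in the middle part. The 20 regions up to 96.9 kb after the start, counting the one 1922 bp before it, averaged 39.1% ± 2.09 in mutant cells and 70.6% ± 2.72 in wild-type cells (-31.5 points). They include regions where wild-type column 2 was far below the other wild-type columns, described below. The next 19, up to 193.8 kb, averaged 56.7% ± 2.25 in mutant cells and 82.6% ± 0.53 in wild-type cells (-25.9 points), and the last 19 averaged 48.1% ± 1.96 in mutant cells and 74.8% ± 1.01 in wild-type cells (-26.7 points; SD, n = 3 each). The largest difference, -45.2 points, was at chr11:114016027-114017330, a region of 31 CpGs about 50 kb into the gene, with 17%, 20.2% and 15.7% in mutant cells and 61.8%, 62.0% and 64.8% in wild-type cells. The region with the most CpGs, 45 at chr11:113867009-113869884, had 60.2%, 60.3% and 63.1% in the mutant, against 83.8%, 88.9% and 87.3% in the wild type. The lowest mutant level among all 196 regions was also in Sdk2, at chr11:113802872-113803301, which was picked out after its values were seen: 1.11%, 0.78% and 0.22% in the mutant, against 27.6%, 33% and 17.9% in the wild type. The authors' caller gave that region no q under 0.05.

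Igsf21 had the largest single difference of the 6 genes. At chr4:140107001-140107687, with 11 CpGs and 139124 bp after the start, levels were 20%, 33.3% and 33.3% in mutant cells and 83.4%, 76.5% and 85.9% in wild-type cells, a difference of -53.1 points. The 52 listed regions of Igsf21 averaged 41.4%, 45.5% and 43.6% in mutant cells and 73.8%, 74.1% and 74.3% in wild-type cells, a difference of -30.6 points, with single regions between -53.1 and -20.3 points. They covered 23.1% of the gene (chr4:140026852-140246983, minus strand, 220.1 kb). The 15 regions beyond 146.8 kb, toward the 3' end of the gene, averaged 35.5% ± 3.59 in mutant cells and 71.0% ± 0.66 in wild-type cells, a difference of -35.5 points, against -29.5 points over the 22 regions up to 73.4 kb and -27.2 points over the 15 between. The region with the most CpGs, 45 at chr4:140033806-140035610, lies there and had 38.5%, 38.5% and 42.3% in the mutant, against 76.2%, 81.5% and 80.3% in the wild type. Of the 52, the region nearest the start, chr4:140228297-140230649 with 38 CpGs, began 16162 bp into the gene and had 31.8%, 45.4% and 32.2% in mutant cells and 72.1%, 69.5% and 70.3% in wild-type cells.

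**Figure D2:**
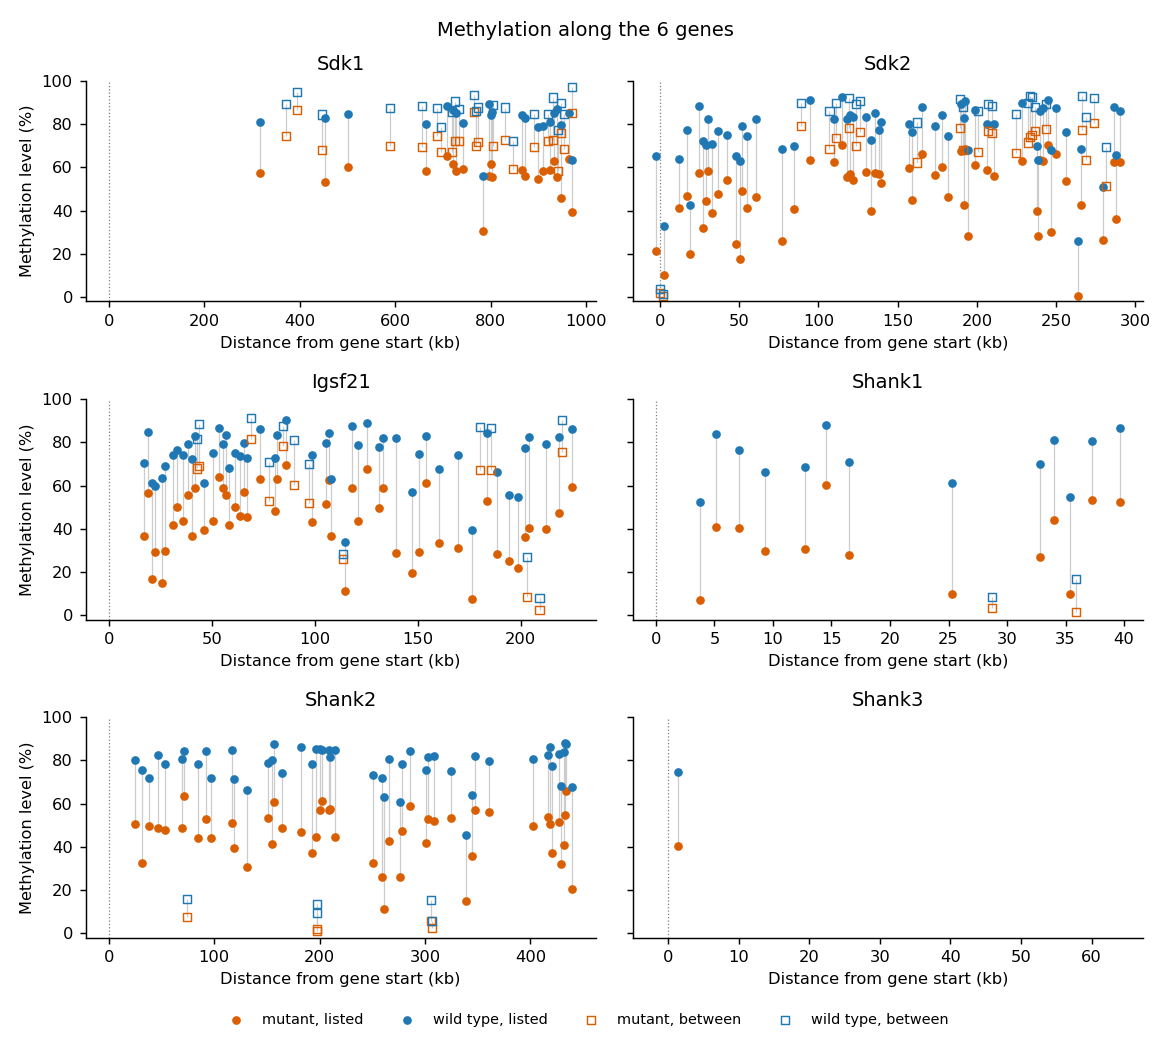
Methylation level in percent (vertical axis) of each member region against its distance from the gene start in kb (horizontal axis), with 1 panel per gene; filled points are listed regions and open points the candidate regions between them, as means of 3 columns for mutant and wild type. Mutant points lie below wild-type points along Sdk2, Igsf21, Shank1 and Shank2, and most Sdk1 regions lie in the part of the gene farthest from its start.

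Of the scaffold genes, Shank1 retained the least methylation. Its 13 listed regions averaged 34.1%, 32.0% and 33.9% in mutant cells and 72.8%, 71.8% and 72.6% in wild-type cells. The difference was -39.0 points, so 46.1% of the wild-type level remained, against 68.8% in Sdk1. Shank1 is also the shortest gene (chr7:44308916-44360094, plus strand, 51.2 kb), with 25.4 listed regions per 100 kb. At chr7:44334037-44334456, with 13 CpGs, the mutant had 11.4%, 11.8% and 6.67% and the wild type 62.2%, 60.8% and 60.3%, a difference of -51.1 points. The region with the most CpGs, 44 at chr7:44324241-44326591, had 29.1%, 26.3% and 28.6% in the mutant, against 70.1%, 70.6% and 71.7% in the wild type. Of the 13, the region nearest the start, chr7:44312463-44312959, began 3547 bp after the gene's edge in the RefSeq table and had 11.6%, 3.80% and 6.33% in mutant cells and 55.4%, 53.7% and 48.5% in wild-type cells. In these 3 regions the columns of a genotype lay within 8 points of each other, and the genotypes were 40 points or more apart on average.

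Shank2 had a similar number of listed regions to Igsf21 in a gene of 448.0 kb (chr7:143978077-144426043, plus strand). Its 50 regions averaged 44.5%, 46.3% and 46.0% in the mutant, against 78%, 77.5% and 78.8% in the wild type, a difference of -32.5 points. The difference varied little along the gene: -31.2 points over the 13 regions up to 149.3 kb, -34.1 points over the next 19, up to 298.6 kb, and -31.7 points over the last 18. Nearly all candidate regions in the gene were on the authors' list, 50 of 55 (90.9%), against 33.1% over all candidate regions. Single regions still differed widely. The largest difference, -51.5 points, was at chr7:144238372-144239849 with 13 CpGs, at 6.67%, 11.8% and 15.7% in mutant cells and 65.4%, 62.7% and 60.5% in wild-type cells. A region of 45 CpGs at chr7:144410234-144411312 had 55.9%, 54.9% and 53.9% in the mutant, against 87.8%, 85.7% and 90.5% in the wild type. Of the 50, the region nearest the start, chr7:144002626-144003579, began 24549 bp after the gene's edge in the RefSeq table. All distances along Shank2 given here are counted from that edge. The list's gene model begins farther downstream, as it puts a region 1258 bp before the edge 25109 bp from Shank2. By that model the nearest of the 50 lies much closer to the start. It had 50.9%, 49.8% and 51.1% in mutant cells and 78.1%, 82.7% and 79.6% in wild-type cells. The authors' caller gave this nearest region no q under 0.05. Of the 50 Shank2 regions 5 were also assigned to Gm14372 in the list, as 1 of Igsf21 was to Gm13027, so those are shared between genes.

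Shank3 had a single listed region, chr15:89500666-89501329 with 13 CpGs, which began 1058 bp after the gene start of the RefSeq promoter table. That start lies 6595 bp inside the gene span of the RefSeq gene table, and distances for Shank3 are counted from it. It had 37.4%, 35.6% and 47.7% in the mutant, against 71.2%, 81.7% and 70.6% in the wild type, a difference of -34.3 points. The third mutant column and the second wild-type column were high in their genotype, but the genotypes did not overlap. The gene (chr15:89493013-89560261, plus strand, 67.2 kb) held 30 candidate regions, of which the listed one made 3.33%, against 59.1% in Shank1 (13 of 22). Those 30 averaged 75.1% in mutant cells and 85.7% in wild-type cells, and their median difference was -9.78 points, whereas it was -31.3 points over the Shank1 and -30.8 points over the Shank2 candidate regions. Limma called 23 of the 30 lower in the mutant, against 93.5% of all candidate regions.

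Regions between the listed ones show what the rule passed over. Sdk1 had 23 of them, Sdk2 24, Igsf21 13, Shank2 5, Shank1 2 and Shank3 0. Limma called 62 of the 67 lower in the mutant and 0 higher (0 also at an unadjusted p under 0.05 and on the logit scale), against 90.2% lower among all candidate regions that were not listed, so these genes stood near that share. Since candidate regions were themselves chosen for a difference, both counts describe them and test nothing. In 62 of the 67 no mutant column reached a wild-type column, against 91.4% of all regions that were not listed. In the adhesion genes most were well methylated in the wild type: the 55 with a wild-type level of 50% or more averaged 71.2% ± 1.46 in mutant cells and 86.8% ± 0.37 in wild-type cells (SD, n = 3 each), a difference of -15.6 points. In Shank1 and Shank2 all 7 had wild-type levels under 20%. The 2 of Shank1 averaged 2.42% ± 0.56 in mutant cells and 12.6% ± 3.46 in wild-type cells, and the 5 of Shank2 averaged 3.72% ± 0.97 in mutant cells and 12.1% ± 0.90 in wild-type cells.

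Low wild-type levels still left room for a difference. At chr7:44344646-44344990 in Shank1 the mutant had 1.91%, 1.09% and 1.18% and the wild type 17.3%, 20.8% and 11.5%, and at chr7:44337523-44337720 the mutant mean was 3.44%, against 8.63% in the wild type. In Shank2, chr7:144175785-144175869 had 0%, 1.58% and 1.75% in the mutant, against 20%, 17.2% and 3.92% in the wild type, the third wild-type column being far below the other two. At chr7:144284306-144284376 the means were 2.33% in mutant cells and 5.89% in wild-type cells, which limma did not call. The smallest difference in Sdk1, -7.67 points at chr5:142005589-142005910, separated 85.7% in the mutant from 93.4% in the wild type, and the largest, -19.6 points at chr5:142172499-142172640, separated 72.8% in the mutant from 92.4% in the wild type. Igsf21 held a region whose columns spread widely, chr4:140133089-140133178, at 32.4%, 33.8% and 11.8% in mutant cells and 21.3%, 22.3% and 41.1% in wild-type cells. There the genotypes overlapped, the means differed by -2.26 points and limma made no call.

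The rule's threshold fell within a continuous range. The smallest listed differences were -20.1, -20.3 and -20.3 points, in Sdk2, Sdk2 and Igsf21. The largest among regions between them were -20.4 points at chr4:140156304-140157806 in Igsf21, with 60.4% in mutant cells and 80.9% in wild-type cells, and -20 points at chr11:113875118-113876340 in Sdk2, with 67.9% in mutant cells and 88.0% in wild-type cells. By distance, 194 of the 196 listed regions overlapped their gene, and the farthest inside the limit lay 4588 bp from Igsf21, at 59.1% ± 2.38 in mutant cells and 86.1% ± 2.22 in wild-type cells (SD, n = 3 each). The nearest outside it lay 5513 bp from Sdk2, with 47.3% ± 4.37 in mutant cells and 78% ± 4.0 in wild-type cells. In all, 13 listed regions of these symbols lay beyond the limit.

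**Figure D3:**
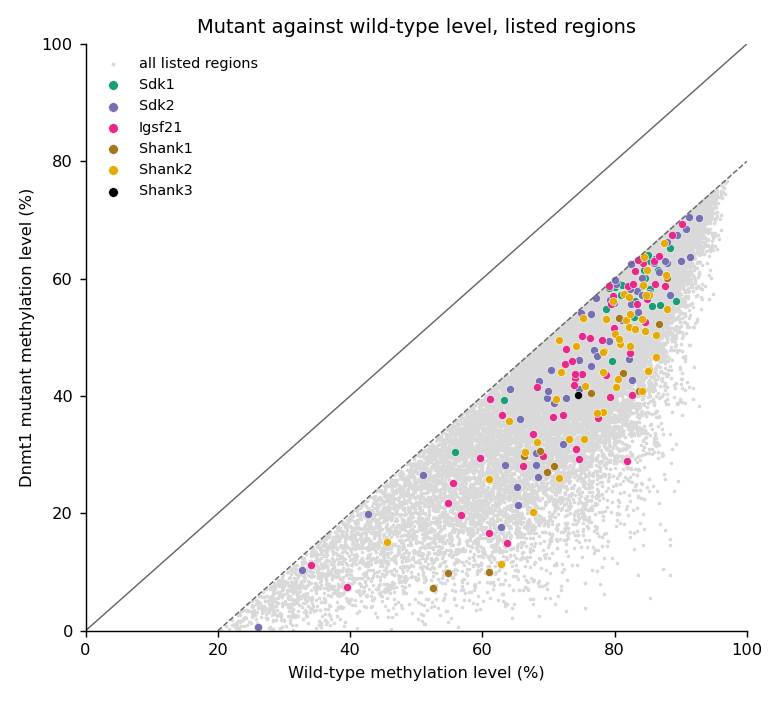
Mean level in the mutant in percent (vertical axis) against the wild type in percent (horizontal axis), with 1 point per listed region coloured by gene, grey points for all listed regions of the series, a solid line of equal levels and a dashed line 20 points lower. All coloured points lie below the dashed line, and at 80% or more in the wild type the Shank1 points average 50.1% and the Sdk1 points 59.0% in the mutant.

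The share of methylation retained was higher where the wild-type level was higher, an order that the list's limit of 20 points fixes in part, since it caps the share at low levels more than at high ones. In the 14 listed regions under 60% in the wild type the mutant averaged 16.8% and the wild type 47.3%, so 35.5% was retained. In the 89 regions from 60% to 80% the mutant averaged 39.5% and the wild type 72.3%, and 54.7% was retained. In the 93 regions at 80% or more the mutant averaged 56.7% and the wild type 84.7%, and 66.9% was retained. All listed regions of the series had the same order, with 39.7%, 57.4% and 69.4% retained. Shank1 was below both in each class, with 15.9%, 40.2% and 59.5% retained over 2, 6 and 5 regions. Sdk1 retained 69.9% over its 17 regions at 80% or more, close to the 69.4% of the series. Of features beyond the level, the 196 regions had a median of 12 CpGs, as all listed regions had, a median length of 844 bp, against 721 bp, and a median of 16.2 CpGs per kb, against 17.8.

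At the starts of Sdk2, Igsf21 and Shank3 the nearest candidate regions were low in methylation in both genotypes. Those nearest the edges of Shank1 and Shank2 were not, but they lay farther off, 1040 and 1258 bp before the edge. The genes are thus not compared at like distances. Farther from Shank1, 2966 bp before its edge, chr7:44305752-44305950 had 6.56% in mutant cells and 20.3% in wild-type cells. The candidate region overlapping the Igsf21 window shown above, chr4:140246749-140247240, had 1.56%, 4.56% and 6.44% in mutant cells and 13.9%, 9.89% and 11.6% in wild-type cells, a difference of -7.59 points that limma called lower. The 7 candidate regions within 6 kb of the Igsf21 start were not on the list, and their levels ranged from 0.93% to 7.19% in the mutant and from 3.58% to 19.5% in the wild type. Just after the Sdk2 start, chr11:114066666-114066755 had 1.85% ± 0.45 in mutant cells and 3.67% ± 2.50 in wild-type cells, and chr11:114064928-114065030 had 0.70% ± 0.79 in mutant cells and 1.33% ± 0.68 in wild-type cells, neither of which limma called. On either side the level stepped up. The listed region 2113 bp after the start, chr11:114063972-114064916, had 6.25%, 11.3% and 13.8% in the mutant, against 35.3%, 29.8% and 33.1% in the wild type. The listed region 1922 bp before the start, chr11:114068951-114069949, had 16.4%, 20.1% and 27.9% in the mutant, against 73.9%, 50.5% and 71.6% in the wild type.

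Shank3 showed a like step over a shorter distance. At chr15:89499961-89500206, 353 bp after the start, the mutant had 2.64%, 0% and 0.45% and the wild type was listed at 0 in every column. At chr15:89500382-89500584 the mutant averaged 6.19% ± 4.25 and the wild type 20.7% ± 0.88, then came the listed region at 40.2% in mutant cells and 74.5% in wild-type cells, and chr15:89503360-89503591 had 87.1% ± 0.85 in mutant cells and 94.1% ± 1.58 in wild-type cells (SD, n = 3 each). Within 6 kb of the Sdk1 start there was no candidate region, which says only that none was tabulated. For Shank1 and Shank2 the edge of the gene in the RefSeq table was used as the start. The listed region 1040 bp before the Shank1 edge, at 38.1% in mutant cells and 58.8% in wild-type cells, carries the symbol Clec11a in the list and so is not among the 196. The one 1258 bp before the Shank2 edge had 20.5% ± 3.02 in mutant cells and 60.2% ± 0.44 in wild-type cells, but the list, whose gene model begins elsewhere, puts it 25109 bp from Shank2.

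**Figure D4:**
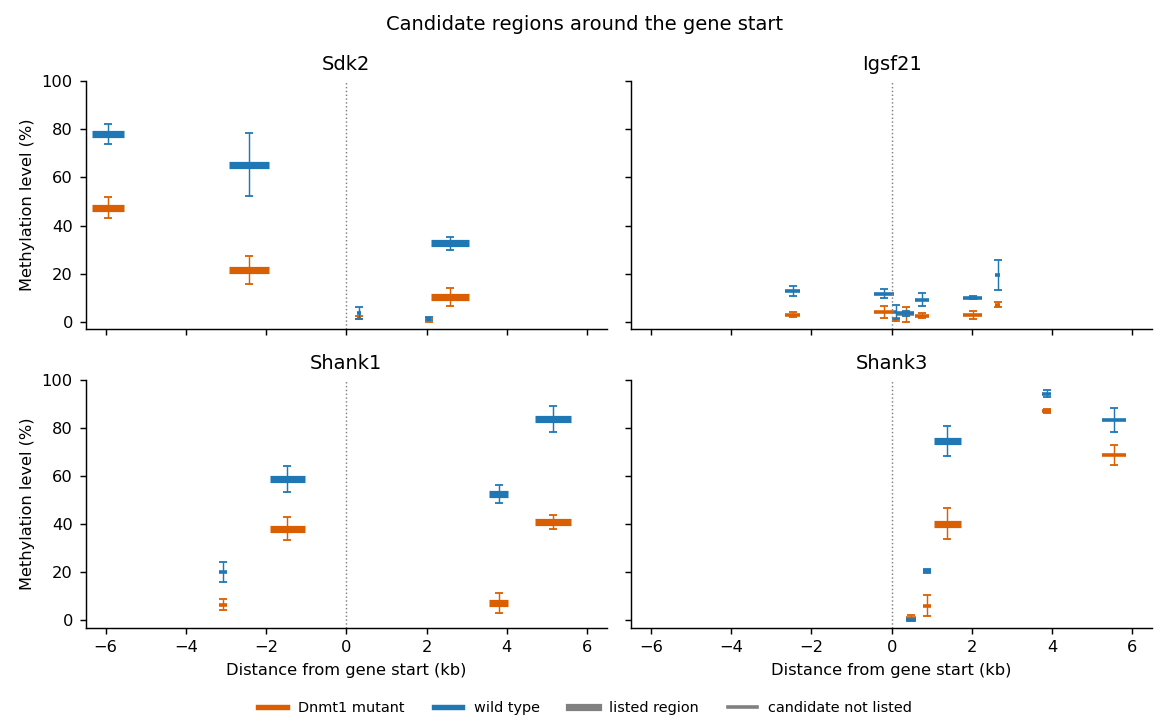
Methylation level in percent (vertical axis) of every candidate region within 6 kb of the start of Sdk2, Igsf21, Shank1 and Shank3, against distance from the start in kb (horizontal axis), as horizontal bars that span the region at its mean level, with error bars for the SD over 3 columns and thicker bars for listed regions. Regions next to the Sdk2, Igsf21 and Shank3 starts lie under 21% in both genotypes' means, and listed regions of Sdk2 and Shank3 farther out reach 78% and 74.5% in the wild type.

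The replicate columns were close over most of these genes. The median SD over 3 columns was 3.95 points in mutant cells and 2.74 points in wild-type cells, against 4.24 points in mutant and 2.68 points in wild-type columns over all listed regions of the series. Mutant column 3 was the lowest of the mutant columns in 49 of the 196 regions (25.0%), against 14.6% over the series. The exception was Sdk2, where wild-type column 2 was more than 10 points below both other wild-type columns in 7 of 58 regions (12.1%), against 0.67% of all listed regions and 0 regions in the 5 other genes. In 2 of the 58 (3.45%) the same column was more than 10 points above both others, against 0.615% of all listed regions. Those 7, picked out after their values were seen, averaged 24.8%, 33.4% and 34.7% in mutant cells and 73.3%, 51.9% and 69.3% in wild-type cells. They ranged from 2.42 kb before the start, the region at chr11:114068951-114069949 among them, to 287.6 kb into the gene. Without wild-type column 2 their mean difference was -40.3 points instead of -33.9 points, a direction that the choice of the 7 fixed. The mean difference of all Sdk2 listed regions without that column was -28.7 points instead of -28.1 points. In Igsf21 mutant column 2 was more than 10 points above both other mutant columns in 5 of 52 regions (9.62%), against 1.32% over the series. What lies behind these departures was not tested.

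**Figure D5:**
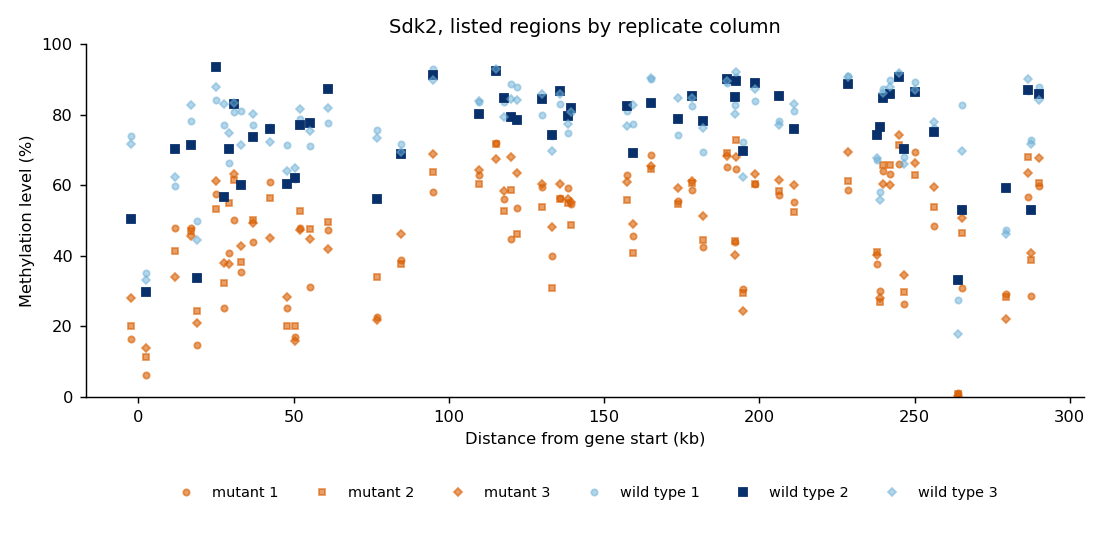
Methylation level in percent (vertical axis) of the 58 listed Sdk2 regions against distance from the gene start in kb (horizontal axis), with mutant and wild-type columns as separate points. Wild-type column 2 lies more than 10 points below the other wild-type columns in 7 regions, at 33.8% to 60.2%.

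The wider family of synaptic adhesion and scaffold genes was read from a list of 71 other genes: neurexins, neuroligins, teneurins, the DLG and DLGAP scaffold proteins and others. Of these, 52 had a candidate region in the gene or within 5 kb, 51 had at least 1 called lower by limma, 0 had any called higher and 47 had a listed region. Their 821 candidate regions had 781 called lower (95.1%) and 0 called higher by limma (0 also at an unadjusted p under 0.05, 2 on the logit scale), near the 93.5% lower and 0.0485% higher over all candidate regions. These counts too are a description, since candidate regions were chosen for a difference. The median difference was -17.7 points, against -16.6 points over all candidate regions, and 39.1% were listed, against 33.1%. The 19 genes with no candidate region included Nlgn1, Cntnap2, Ptprd and Homer1. Among them too were all genes of the list on chromosome X: Nlgn3, Dlg3, Slitrk2, Il1rapl1, Tenm1 and Cask. Why these had none was not tested. The 321 listed regions averaged 45.8% ± 1.74 in mutant cells and 76.0% ± 0.38 in wild-type cells (SD, n = 3 each), close to the levels over the 6 genes.

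The largest differences in that list were beyond any in the 6 genes. Dscaml1, a DSCAM-like adhesion protein, had 23.3%, 11.4% and 20.1% in mutant cells and 91.1%, 88.3% and 81.1% in wild-type cells at chr9:45710267-45710418, a difference of -68.6 points. Dlgap4, which encodes a binding partner of postsynaptic DLG scaffolds, had 30.9%, 7.26% and 11.2% in the mutant, against 72.1%, 83.4% and 79.8% in the wild type, at chr2:156710988-156711432 (-62.0 points). Its mutant columns spread widely, with an SD of 12.7 points, but stayed apart from the wild type. The teneurin Tenm2 had 21.9% ± 8.49 in mutant cells and 79.6% ± 5.04 in wild-type cells at chr11:36002323-36002564. The adhesion gene Dscam had 30.9% ± 6.55 in mutant cells and 85.6% ± 6.49 in wild-type cells at chr16:96673191-96673663 (SD, n = 3 each). By number, Dscaml1 and Dlgap4 had 33 listed regions each and the neurexin gene Nrxn2 had 24, all fewer than Sdk2, Igsf21 or Shank2 and more than Sdk1, Shank1 or Shank3.

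Other genes had column means like those of the 6 genes. Likeness was measured as the root mean square difference over the 6 columns of the mean level over listed regions, among genes with at least 5 of them, and it ranks genes on this single readout. Closest to the 6 genes together was Hmcn2 at 0.37 points, with 45.8% ± 1.63 in mutant cells and 76.2% ± 0.33 in wild-type cells over 36 regions, followed by Myo18b (0.67 points), Reep1 (0.75 points), Foxn4 (0.77 points) and Pax5 (0.80 points). Sdk1 was closest to Myo5b, Dpysl5 and Galnt16, at 0.68 to 0.86 points, and Sdk2 to Pmepa1, Otof and Amotl1, at 0.68 to 0.74 points. Igsf21 was closest to Rnft2, Jph2 and Gucy2g, at 0.65 to 0.94 points, and Shank2 to Tmcc3, Glp1r and Calb2, at 1.06 to 1.11 points. For Shank1, Hcn3 stood at 1.23 points, the cadherin gene Cdh22 at 1.49 points and Hpca at 1.84 points. Shank3, with its 1 region, was 3.41 to 3.73 points from Trim50, Kbtbd11 and Tinagl1.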

How the data were processed

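The authors deposited methylation levels as a fraction per candidate region in 6 columns, a list of hypomethylated regions with a CpG number, and the difference of means as a score. The deposited list also gives the metilene q-value. Coordinates are those of mm10, which the submitters' processing notes name. Not given in the sources used here were the aligner, the caller's settings and whether reads of both kits were merged in a column. Without coverage the depth is unknown, so no coverage minimum or counting interval was possible. Listed regions had at least 10 CpGs and an authors' difference of at least 20 points.

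Fractions were turned into percent, and columns were assigned to genotypes by name. limma 3.58.1 in R 4.3.3 was fitted to all 107115 candidate regions, p-values adjusted by Benjamini-Hochberg and called under 0.05, after a test on simulated data. An exact permutation test of 3 against 3 columns cannot give a p below 0.1, and none is reported. Differences are mutant minus wild type. Gene spans and windows came from RefSeq tables of GRCm38.p6, which hold no exons. The regions, the gene list and the tests were chosen with earlier results of these data known. In each gene the text names the listed regions with the largest difference, the most CpGs and the nearest start, the regions between with the smallest and largest difference, 5 list genes by largest loss and 3 by number of regions. A gene that this rule took is not reported here. Python 3.11.15, numpy 2.4.6, pandas 2.3.3 and matplotlib 3.10.9 were used.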

Additional observations from a re-analysis of the deposited data

How the results depend on the processing

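Over the alternatives that left out a column, the mean difference over the listed regions ran from -30.8 to -29.6 points, and limma's calls of lower levels ran from 57 to 63 among the 67 regions between and from 741 to 774 among those of the list of other genes, while the share called lower over all candidate regions ran from 89.3% to 93.4%. The 196 listed regions were called lower each time, which their selection on these columns fixed. Keeping only regions with a metilene q under 0.05 left 55 listed regions, all called lower, with a mean difference of -34.7 points; fewer regions remain by construction. Correlations of deviations between mutant and wild-type columns of the same replicate number were 0.037, 0.0049 and 0.050, against -0.051 to 0.012 between columns of different numbers. With 3 columns per genotype these values cannot decide whether the numbers pair the samples. With the number as a block limma called 196, 61 and 779 regions lower, with a mean difference of -30.3 points. At chr4:140133089-140133178 in Igsf21 the difference turned to 4.85 points without mutant column 3 and to 4.17 points without wild-type column 3, and was -6.15 points without mutant column 2; the cause was not tested. Among 26 named regions 22 were on the same side of the threshold in every fit; the calls at chr5:142005589-142005910 in Sdk1, chr7:44337523-44337720 in Shank1 and chr7:144175785-144175869 in Shank2 were lost in some, and chr7:144284306-144284376 in Shank2 was called lower on the logit scale and with a mean-variance trend. On the logit scale limma called 2 regions of the list of other genes higher, against 0 in percent.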
